A study of Mus musculus with 8 samples.

Results

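Haemoglobin carries oxygen in red blood cells and is built from alpha and beta chains around haem, the iron-holding group. Mice carry the adult alpha chain in a pair of neighbouring genes, Hba-a1 and Hba-a2, whereas the adult beta locus comes in strain-dependent haplotypes, of which one holds Hbb-bs and Hbb-bt (the form of C57BL/6J) and another Hbb-b1 and Hbb-b2. Young red cells still hold globin mRNA, so that blood left in the vessels of a dissected brain adds it to the tissue RNA, and globin transcripts have also been found in neural cells. Besides the globins, the genes described here were Alas2, the haem-synthesis enzyme of red-cell precursors, Slc4a1, the band 3 anion exchanger of the red-cell membrane, and Bpgm, the enzyme that makes 2,3-bisphosphoglycerate, which lowers the oxygen affinity of haemoglobin. Probes were taken where the gene name in the array annotation was one of these genes. Of 56605 probes, 11 belonged to 9 of the 10 genes sought (Hba-a1, Hba-a2, Hbb-b1, Hbb-b2, Hbb-bt, Hbb-bs, the embryonic Hbb-bh1, Alas2, Slc4a1 and Bpgm), and Hbb-bs had no probe under its own name.

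Whole cerebral cortex together with striatum gave the RNA of 4 male B6 mice (C57BL/6J) and 4 male BTBR/R mice (BTBRTF/ArtRbrc, an inbred line and another subline than BTBR/J), without any treatment, and each mouse had its own Agilent one-color array. The B6 mice were 4 months old, as were BTBR/R replicates 2, 3 and 4, while BTBR/R replicate 1 was 6 months old. The methods state decapitation under anesthesia and describe no perfusion for the tissue used on the arrays. All arrays shared 1 slide, on which each strain filled a column of its own, so a strain effect and a column effect cannot be told apart. The value used is the scaled signal, the log2 processed intensity minus the 75th percentile of its array, so that 0 is that percentile. Differences are given as BTBR/R minus B6 on this log2 scale, and a probe was called where limma's adjusted p over all probes was below 0.05 and the change at least 2-fold. A probe counted as detected where the software flagged it well above background, which held for 64.5% to 66.8% of probes in B6 mice and for 53.5% to 57.2% in BTBR/R mice. As a check of the tissue, 13 probes of 6 neuronal marker genes were detected on all 8 arrays. Of these, 0 were called by limma, against 2.2% of all probes detected in this way, and 3 had an unadjusted p below 0.05. By adjusted p alone 2 of the 13 were higher in BTBR/R mice and 0 lower, against 13% and 13.9% of all such probes. They were a Gad1 probe, higher by 0.83 (limma adjusted p = 0.000696), and a Snap25 probe, higher by 0.21 (limma adjusted p = 0.0469). The level of a marker list, here and below, is the mean scaled signal over the brightest detected probe of each gene. For the neuronal list it ran from 3.37 to 3.55 over the 8 mice.

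Because the globin genes are near copies of each other, the probe sequences decide which transcripts a signal can come from. Both 3′ alpha-globin probes are shown by their last 30 bases, with the AATAAA polyadenylation signal in capitals, and they share a run of 59 of their 60 bases.
Hba-a1 3′ probe: ggtctttgAATAAAgcctgagtaggaagaa
Hba-a2 probe: gtctttgAATAAAgcctgagtaggaagaag
The array annotation lists transcripts of both Hba-a1 and Hba-a2 for each of the 3 alpha-globin probes, so their signals cannot be assigned to one gene. The second Hba-a1 probe lay in the coding part and shared no run longer than 6 bases with the first, which makes it a separate reading of the same transcripts.
Hba-a1 coding probe: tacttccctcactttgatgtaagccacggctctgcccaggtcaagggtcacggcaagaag
The Hbb-b1 probe reads the start of the transcript. Its first 30 bases are shown above the matching stretch of Hbb-bs and Hbb-bt from the RefSeq promoter table (GRCm38.p6), with the bases that differ from the probe in capitals.
Hbb-b1 probe: tttgcttctgacatagttgtgttgactcac
Hbb-bs transcript start: tttgcttctgacatagttgtgttgactcac
Hbb-bt transcript start: tttgcttctgaTTCTgttgtgttgactTGc
Over the 46 bases that could be compared, the Hbb-b1 probe matched Hbb-bs at 46, and it matched Hbb-bt at 38 of 45. The annotation lists Hbb-b1 and Hbb-bs transcripts for it. The Hbb-b2 probe lay in the coding part, had no mm9 position, and was listed for Hbb-b2 and Hbb-b1 transcripts.
Hbb-b2 probe: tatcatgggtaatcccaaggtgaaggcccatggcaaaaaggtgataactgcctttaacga
The Hbb-bt probe was listed for Hbb-bt alone. The haplotype of the BTBR/R mice is not given in the labels.

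Alpha-globin signal was high in all mice, differed up to 3.18-fold among B6 mice and was nearly level among BTBR/R mice. The 3′ probe of Hba-a1 (mm9 chr11:32184427-32184486, mean of 10 spots) had scaled signals of 6.33, 7.73, 7.05 and 6.07 in B6 replicates 1 to 4. In BTBR/R replicates 1 to 4 it had 5.80, 5.54, 5.64 and 5.49. All BTBR/R mice lay below all B6 mice, B6 replicates 2 and 3 stood highest, and B6 replicate 4 was only 0.27 above the highest BTBR/R mouse. The strain means were 6.79 ± 0.75 in B6 and 5.62 ± 0.14 in BTBR/R (SD, n = 4), a difference of -1.18 (SE 0.35, limma adjusted p = 0.0319), 2.26-fold lower in BTBR/R mice. The Hba-a2 probe (chr11:32197245-32197304, 10 spots) gave 6.28, 7.68, 7.03 and 6.01 in B6 mice and 5.74, 5.51, 5.59 and 5.45 in BTBR/R mice. Its difference was -1.18 (SE 0.35, limma adjusted p = 0.0320). The coding probe of Hba-a1 (chr11:32183955-32184014, 10 spots) gave 5.05, 6.36, 5.77 and 4.83 against 4.71, 4.37, 4.48 and 4.42, a difference of -1.01 (SE 0.32, limma adjusted p = 0.0426). The order of the B6 mice was the same for all 3 probes.

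**Figure D1:**
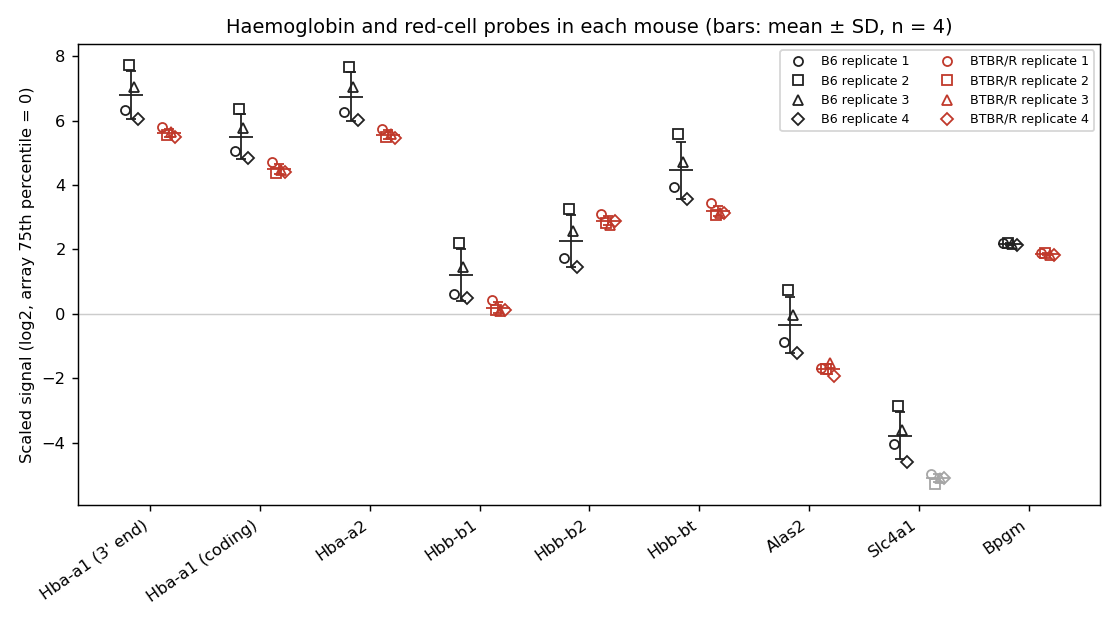
Scaled signal (log2, 0 is the 75th percentile of the array) of 9 probes in each of 4 B6 mice (black) and 4 BTBR/R mice (red, or gray for Slc4a1, which was not above background in them), with marker shape giving the replicate number and bars the mean ± SD (n = 4). B6 replicate 2 is the highest B6 mouse for every probe, the BTBR/R mice lie close together, and Hbb-b2 is the probe at which the strains overlap.

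The adult beta-globin probes showed the same order of B6 mice but not the same strain difference. Hbb-bt (chr7:110961105-110961164), whose probe is listed for this gene alone, had scaled signals of 3.93, 5.60, 4.72 and 3.58 in B6 mice and 3.44, 3.07, 3.13 and 3.13 in BTBR/R mice. B6 replicate 2 was 4.05-fold above B6 replicate 4, and no BTBR/R mouse reached the lowest B6 mouse. The difference of -1.26 (SE 0.42) was called (limma adjusted p = 0.0467). Hbb-b1 (chr7:110976379-110976438) had 0.61, 2.21, 1.47 and 0.49 in B6 mice and 0.43, 0.13, 0.09 and 0.11 in BTBR/R mice. The strains again did not overlap, by a margin of 0.055, and the difference of -1.003 (SE 0.37) was not called (limma adjusted p = 0.0706). Hbb-b2 had 1.73, 3.26, 2.57 and 1.46 in B6 mice and 3.09, 2.83, 2.77 and 2.88 in BTBR/R mice. Here the BTBR/R mice lay inside the range of the B6 mice, above 3 of the 4, and the difference of 0.63 (SE 0.38) was not called (limma adjusted p = 0.228). With 1 mouse left out, this difference ran from 0.37 (without B6 replicate 4) to 0.97 (without B6 replicate 2, limma adjusted p = 0.0314) and was never called.

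The embryonic gene Hbb-bh1 was not detected on any array by either of its probes. One probe (chr7:110990209-110990268) had scaled signals of -5.48 to -4.83 in B6 and -5.90 to -5.34 in BTBR/R mice, and the other (chr7:110990930-110990989) -7.49 to -5.95 and -6.19 to -5.78, with no array on which either was flagged as above background.

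Alas2 had the order of the globins in B6 mice and Bpgm did not, while Slc4a1 could be read in B6 mice alone. Alas2 (chrX:147004993-147005052) had scaled signals of -0.88, 0.73, -0.05 and -1.21 in B6 mice and -1.68, -1.70, -1.54 and -1.92 in BTBR/R mice. B6 replicates 2 and 3 were again highest, the strains did not overlap, and the level was 2.56-fold lower in BTBR/R mice (-1.36, SE 0.40, limma adjusted p = 0.0324). Slc4a1 (chr11:102210256-102210315) had -4.05, -2.87, -3.61 and -4.60 in B6 mice, where it was detected in all 4. In BTBR/R mice, where it was not well above background in any, the values were -4.98, -5.28, -5.11 and -5.10. On the scaled log2 values the mean B6 signal lay slightly below the mean of the lowest detected signals of the BTBR/R arrays, with B6 replicate 2 above all of them, so no lower bound on a fold could be set, and Slc4a1 was left out of the counts and tests below. Bpgm (chr6:34454792-34454851) had 2.19, 2.19, 2.16 and 2.14 in B6 mice and 1.88, 1.89, 1.82 and 1.84 in BTBR/R mice. The B6 mice spanned only 1.04-fold and the BTBR/R mice 1.05-fold, and the small difference of -0.31 (SE 0.04, 1.24-fold lower) passed limma's adjusted p of 0.000639 but not the 2-fold threshold.

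Of the 8 probes detected on all 8 arrays, 5 were called lower in BTBR/R mice (the 3 alpha-globin probes, Hbb-bt and Alas2), 0 were called higher and 3 were not called. Of the 28547 probes detected in the same way, 1.16% were called lower and 1.04% higher, and over all 56605 probes, undetected ones included, 22.4% were called in either direction. All BTBR/R mice lay below all B6 mice at 7 of the 8 probes, against 16.4% of those 28547 probes, with the opposite order at 0 of the 8 and at 16.3%. The 8 probes are not independent readings. The 3 alpha-globin probes are listed for the same genes, and all 8 probes were read in the same mice. The median difference of the 28547 probes was 0.0015. In whole tissue, fewer cells of a type and less RNA per cell cannot be told apart. The 5 lower calls did not hold when 1 mouse was left out, save for 2 of the mice. Without B6 replicate 2 the 3 alpha-globin probes had differences of -0.86, -0.73 and -0.87, Hbb-bt -0.88 and Alas2 -0.995, all short of 2-fold, and 0 probes were called by limma. Their limma adjusted p values were 0.0321, 0.0528, 0.0343, 0.0478 and 0.0332 in that order. All but the coding probe of Hba-a1 thus lost the call by the fold limit alone. Without B6 replicate 3, or without any single BTBR/R mouse, 0 were called as well. The differences of the 5 probes then still lay between -0.92 and -1.41, with limma adjusted p of 0.0519 to 0.107. The same 5 were called without B6 replicate 1, and 6 without B6 replicate 4, Hbb-b1 being the added one.

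**Figure D2:**
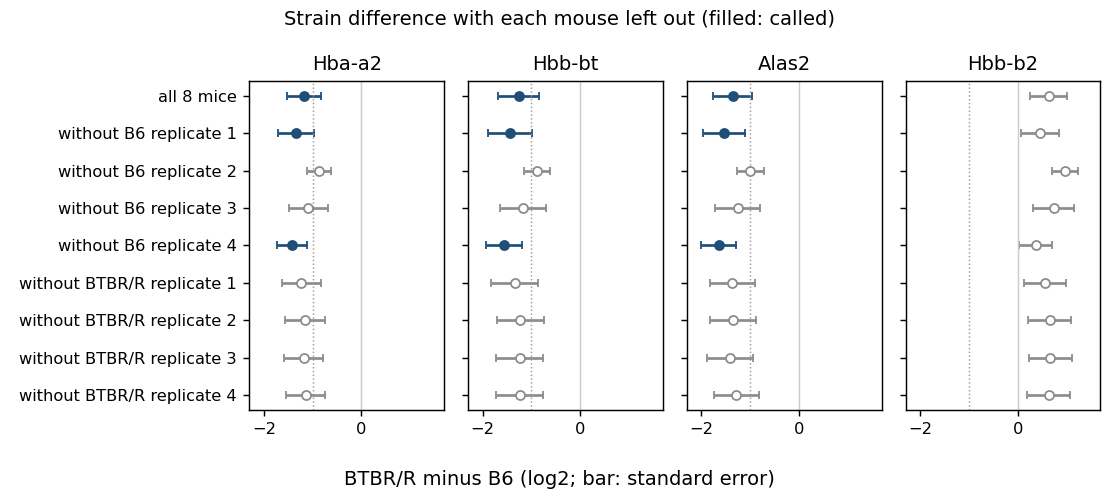
Difference BTBR/R minus B6 (log2, bar is the standard error of limma's fit) of the Hba-a2, Hbb-bt, Alas2 and Hbb-b2 probes with all 8 mice and with each mouse left out in turn, where filled points were called and the dotted line marks a 2-fold lower level. Every point of Hba-a2, Hbb-bt and Alas2 lies below 0, but these 3 lose their call in 6 of the 8 omissions and move above the 2-fold line without B6 replicate 2, while every point of Hbb-b2 lies above 0 and none is called.

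The globin and Alas2 signals spread more among B6 mice than among BTBR/R mice. The SD over the 4 B6 mice exceeded that over the 4 BTBR/R mice at 7 of the 8 probes detected on all arrays, by 4.67 to 6.00 times, and Bpgm was the exception with a ratio of 0.789. These ratios depended on single mice. With each mouse left out in turn they stayed above 1 at the 7 probes, but ran from 3.30 to 45.8 for Hbb-b1, from 3.48 to 27.7 for Hbb-bt, from 4.21 to 15.6 for Hbb-b2, from 3.30 to 12.7 for the coding probe of Hba-a1, from 3.73 to 9.57 for its 3′ probe and from 3.81 to 9.76 for Alas2, with the ratios of Hba-a2 inside the range of the coding probe. The lowest Hbb-b1 and Hbb-bt ratios were those without B6 replicate 2, and the highest globin ratios those without BTBR/R replicate 1. Across the 28547 probes detected on all 8 arrays, the B6 SD was the larger one at 43.8%, and the median SD was 0.076 in B6 and 0.085 in BTBR/R mice. In B6 mice the SDs of Hbb-bt (0.90), Alas2 (0.87), Hbb-b2 (0.82), Hbb-b1 (0.81), Hba-a2 (0.76) and both Hba-a1 probes (0.75 and 0.70) ranked between 40 and 91 among those 28547 probes. An SD of at least 0.5 in B6 mice, which all 7 of these probes had, was found at 0.666% of the probes. In BTBR/R mice the same 7 probes had SDs of 0.13 to 0.17 and ranked between 4864 and 8090. Bpgm ranked 26903 in B6 and 26037 in BTBR/R mice, among the steadiest probes of both strains. An exact two-sided permutation test of the absolute deviations from the strain median gave p = 0.0286, the smallest that 4 against 4 allows, at each of the 7 probes, but 8.46% of all tested probes reached that value, 0 passed after Benjamini-Hochberg adjustment, and the adjusted p of the 7 was 0.338. Bpgm had p = 0.4 in the same exact test.

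**Figure D3:**
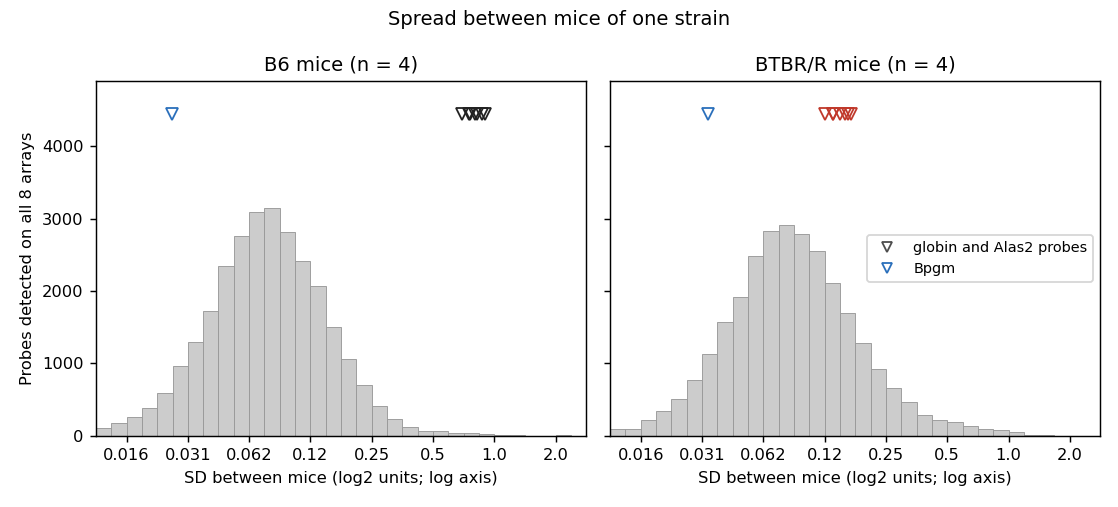
Number of probes (of the 28547 detected on all 8 arrays) by SD between the 4 mice of a strain (log2 units, log axis), with triangles at the globin and Alas2 probes and, in blue, Bpgm. The 7 globin and Alas2 probes lie between 0.70 and 0.90 in B6 mice, in the far right tail, and between 0.13 and 0.17 in BTBR/R mice.

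The B6 mice kept 1 order at the 6 globin probes, Alas2 and Slc4a1 (all detected in these mice), namely replicate 2, then 3, then 1, then 4. Among BTBR/R mice, replicate 1, the 6-month mouse, was highest at all 6 globin probes, but the order of the other 3 mice changed from probe to probe. The part of age in this was not tested, because only 1 mouse had that age. Against the mean of the 3 alpha-globin probes, the slope over mice within strains was 1.22 (SE 0.06) for Hbb-bt, 1.10 (SE 0.07) for Hbb-b2, 1.09 (SE 0.07) for Hbb-b1, 1.17 (SE 0.10) for Alas2 and 0.02 (SE 0.05) for Bpgm, where 1 means a proportional change. These slopes came from a limma fit with strain and alpha-globin level that was chosen after seeing the data. The alpha-globin mean had an SD of 0.73 in B6 and 0.14 in BTBR/R mice, so the slopes rest mostly on the B6 mice. Beside the alpha-globin probes themselves, the slopes of Hbb-bt, Hbb-b1 and Hbb-b2 passed an adjusted p of 0.05 (0.00891, 0.0214 and 0.0214), that of Alas2 did not (0.0774), and 0.021% of the 28547 probes did so in all.

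Relative to alpha-globin, the Hbb-b2 probe was set apart between the strains by far more than its spread within them. Its signal minus the alpha-globin mean was -4.15, -3.99, -4.05 and -4.17 in B6 replicates 1 to 4 and -2.33, -2.31, -2.46 and -2.24 in BTBR/R replicates 1 to 4. The ranges within strains were 0.18 and 0.22, and the gap between the strain means was 1.76. Signals minus the alpha-globin mean differed by 0.12 for Hbb-b1, -0.14 for Hbb-bt and -0.23 for Alas2, and by -0.06 to 0.11 among the 3 alpha-globin probes, which contribute to that mean. For Bpgm, which did not follow alpha-globin, the difference was 0.81, with ranges of 1.56 in B6 and 0.29 in BTBR/R mice. With alpha-globin level in the limma fit, the Hbb-b2 probe was 1.87 higher in BTBR/R mice (SE 0.10, 3.66-fold, adjusted p = 0.000437), in a fit that called 16.9% of all probes and 2.08% of those detected on all 8 arrays. In the same fit Hbb-b1 differed by 0.22 (SE 0.10, adjusted p = 0.175), Hbb-bt by 0.11 (SE 0.09, adjusted p = 0.473) and Alas2 by -0.05 (SE 0.14, adjusted p = 0.864), and none of these was called. Bpgm kept its small difference of -0.29 (SE 0.07, adjusted p = 0.0269). The alpha-globin mean ran from 5.64 to 7.26 in B6 and from 5.12 to 5.41 in BTBR/R mice. As the strains do not overlap in it, the differences from this fit rest on a slope extended across the gap between them. The Hbb-b2 probe is the one listed for Hbb-b2 and Hbb-b1 transcripts and for neither Hbb-bs nor Hbb-bt. Whether sequence differences between the strains under this probe or different transcripts gave the shift was not tested.

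**Figure D4:**
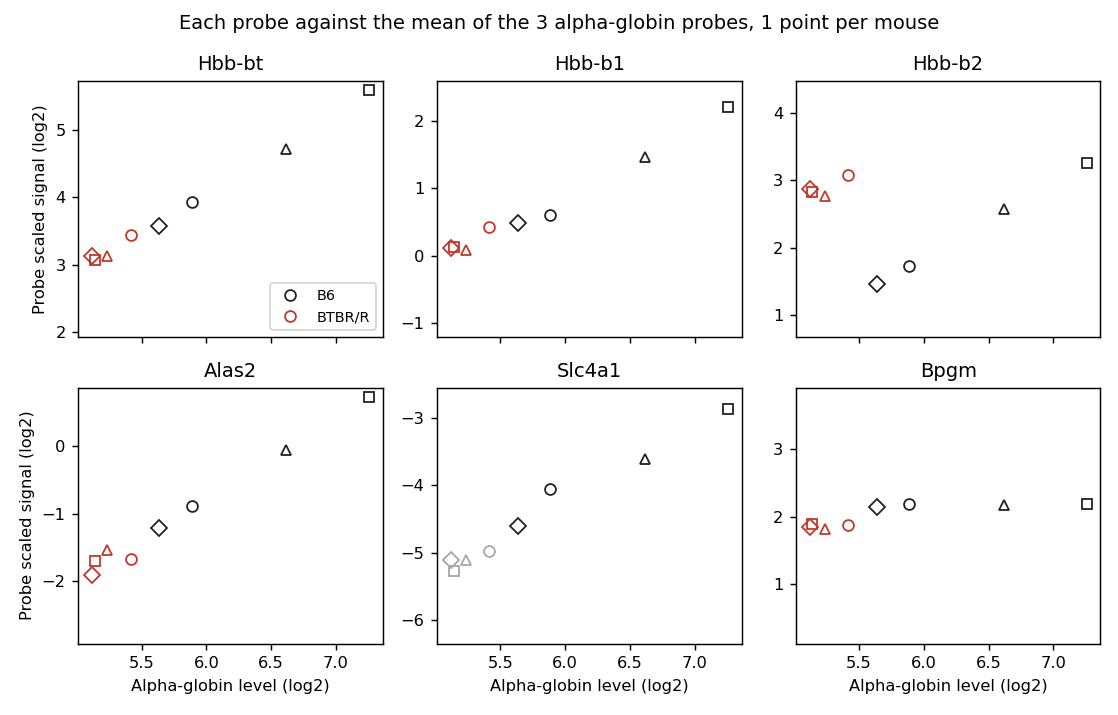
Scaled signal (log2) of 6 probes against the mean scaled signal of the 3 alpha-globin probes, 1 point per mouse (B6 black, BTBR/R red, marker shape is the replicate number, gray where a strain had no mouse above background), with axes of equal height in each panel. Hbb-bt, Hbb-b1 and Alas2 of both strains fall along 1 rising band, Slc4a1 rises among B6 mice, the BTBR/R points of Hbb-b2 lie above the B6 band, and Bpgm is flat.

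Sequences before the transcription start are shown for 4 of the genes, since Hba-a1, Hbb-bt and Alas2 moved together and Bpgm did not. Each is the last 150 bases before the start in the RefSeq promoter table (GRCm38.p6), read along the gene, with 4 motifs in capitals wherever either strand held them. The CACCC box and the CCAAT box bind activators of globin and many other genes. The TATAA letters mark a TATA box, near which transcription starts. The GATA hexamer, bound by GATA factors, was taken as that word with an adenine or thymine before it and a purine after it. None of the matches shown overlapped another motif.
Hba-a1 (chr11:32283522-32283671, plus strand): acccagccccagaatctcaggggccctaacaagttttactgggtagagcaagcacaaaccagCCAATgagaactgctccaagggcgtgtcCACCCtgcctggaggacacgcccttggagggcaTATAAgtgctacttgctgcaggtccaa
Hbb-bt (chr7:103813924-103814073, minus strand): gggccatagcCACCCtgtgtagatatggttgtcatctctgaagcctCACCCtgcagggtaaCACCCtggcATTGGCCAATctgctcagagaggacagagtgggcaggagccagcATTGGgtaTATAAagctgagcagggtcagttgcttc
Alas2 (chrX:150547267-150547416, plus strand): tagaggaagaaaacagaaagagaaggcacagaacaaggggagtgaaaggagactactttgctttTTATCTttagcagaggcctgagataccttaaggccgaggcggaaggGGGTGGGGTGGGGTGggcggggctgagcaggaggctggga
Bpgm (chr6:34476206-34476355, plus strand): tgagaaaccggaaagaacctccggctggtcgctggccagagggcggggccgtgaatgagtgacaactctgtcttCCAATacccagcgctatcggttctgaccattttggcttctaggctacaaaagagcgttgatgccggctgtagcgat
The Hba-a1 and Hbb-bt windows held the TATA box letters, the CCAAT box and the CACCC box. The Alas2 window held 3 CACCC matches and 1 GATA hexamer, and the Bpgm window held 1 CCAAT match and none of the other motifs. Of 32851 windows of the same length, 37.4% held the CACCC box, 24.5% the CCAAT box, 14.2% the TATA box letters and 16.0% a GATA hexamer. Hbb-b1, Hbb-b2, Hbb-bh1 and Slc4a1 had no entry.

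By likeness to the globin profile (the mean of the 6 globin probes per mouse), measured as Pearson's r between deviations from the strain mean over the 8 arrays, Alas2 ranked 9 of 28547 probes (r = 0.976) and Bpgm 4899 (r = 0.390). The 8 most similar probes of other genes were those of Lum (r = 0.982), an extracellular matrix proteoglycan, Zdhhc22 (0.979), a protein palmitoyltransferase, the Prdx6 pseudogene transcript ENSMUST00000121989 (0.973), Kif17 (0.973), a kinesin motor, Fam46c (0.970), Ybx1 (0.968), Agps (0.966), an enzyme of ether lipid synthesis, and Cenpq (0.964), a centromere protein. Without the arrays of B6 replicates 2 and 3, the farthest from the median, r was 0.925 for Alas2, 0.953 for Lum and 0.909 for Fam46c. The deviations were still taken from strain means over all 8 arrays, so the omitted mice still set the B6 mean. In the globin profile B6 replicates 1 and 4 (3.99 and 3.74) lay below both omitted mice (5.47 and 4.77). These r therefore cannot show likeness without the omitted mice. Within BTBR/R mice alone, where the globin profile ran only from 3.57 to 3.87, r was 0.233 for Alas2, and for the 8 others it was 0.826 for Kif17, 0.679 for Zdhhc22, 0.636 for Agps, 0.433 for Lum, 0.415 for the Prdx6 pseudogene transcript, 0.377 for Cenpq, 0.169 for Ybx1 and -0.57 for Fam46c. Of the 8, Lum spanned -2.02 to -1.04 in B6 and -2.08 to -2.01 in BTBR/R mice, and Fam46c -1.19 to -0.15 and -1.62 to -1.56. Kif17, alone of the 8, had a higher mean in BTBR/R mice (0.33, limma adjusted p = 0.00621). It spanned -0.16 to 0.08 in B6 and 0.22 to 0.30 in BTBR/R mice. With 8 arrays and 28547 probes ranked, such values are a description and were not tested.

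Other genes of the red-cell and haem pathways were counted over the probes detected on all 8 arrays, of which 2.2% in the whole table were called in either direction. Among 18 probes of red-cell membrane and reticulocyte genes and 12 of erythroid regulators, 0 were called by limma (9 and 4 had an unadjusted p below 0.05), and the list medians were 0.13 and 0.03. At the background share, lists of this size would hold fewer than 1 call each, so these counts do not set the lists apart. The erythroid transcription factors Gata1, Klf1 and Nfe2 were not detected throughout either strain. Of 13 haem-synthesis probes, 1 was called. It reads Fech, which inserts iron into the ring, and had 2.64, 2.82, 2.69 and 2.71 in B6 and 1.68, 1.62, 1.65 and 1.66 in BTBR/R mice, 2.10-fold lower (limma adjusted p = 1.71e-05), with a slope on alpha-globin of 0.08 (SE 0.05). Of 17 probes for haem breakdown, scavenging and iron, 1 was called. It was 1 of 3 probes of Slc11a2, an iron transporter, and its level in BTBR/R mice was lower by 2.63-fold (adjusted p = 2.76e-05 by limma), while the other 2 differed by -0.87 and -0.24. Without the fold limit, limma's adjusted p was below 0.05 with a lower level in BTBR/R mice at 13.9% and with a higher level at 13% of the 28547 probes. On this reading 8 of the 17 probes for haem breakdown, scavenging and iron were lower and 1 higher, 3 and 1 of the 13 for haem synthesis, 1 and 5 of the 18 for the membrane and reticulocytes, and 2 and 2 of the 12 for erythroid regulators. Of the other globins, the brain-expressed Cygb (0.34, limma adjusted p = 0.00276) and Ngb (0.10, limma adjusted p = 0.710) were not called. Hbq1a, of the theta-globin genes beside the alpha locus, and Hp, the plasma haemoglobin binder haptoglobin, were detected in all B6 mice and no BTBR/R mouse. For Hbq1a all B6 signals lay below the lowest detected signals of the BTBR/R arrays, and no difference was read. For Hp the mean B6 signal was 1.13-fold above the mean of those lowest signals, which puts the BTBR/R level lower by at least 1.13-fold, but 2 of the 4 B6 mice (-3.74 and -3.76) lay under that mean.

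Markers of other cells that could come with blood or vessels were compared in the same mice. Of 4 probes of white blood cell genes, 2 of platelets, 16 of endothelial and mural cells and 5 of choroid plexus detected on all 8 arrays, 0 were called by limma, and 1, 1, 5 and 0 had an unadjusted p below 0.05. At 2.2% called in the whole table, so few probes say little by their counts. Without the fold limit, 1 of the 2 platelet probes and 4 of the 16 endothelial and mural probes were lower in BTBR/R mice at an adjusted p below 0.05, and 1 of the 16 was higher, against the 13.9% and 13% above. The platelet probe was that of the chemokine Pf4 (-0.69, limma adjusted p = 0.00640). The lower endothelial probes were those of the tight-junction protein Cldn5 (-0.51, limma adjusted p = 0.0129), of Ly6c1 (-0.39 and -0.29, limma adjusted p = 0.0103 and 0.0200) and of the VEGF receptor Kdr (-0.31, limma adjusted p = 0.0266), and the higher one was that of the glucose transporter Slc2a1 (0.20, limma adjusted p = 0.0269). These genes were named after their values were seen. Both Ly6c1 probes had the globin order of B6 mice, with 1.89, 2.13, 1.99 and 1.75 and with 4.01, 4.28, 4.08 and 3.98 in B6 replicates 1 to 4. In all, 3 of the 16 endothelial and mural probes had that order (both of Ly6c1 and that of Cdh5), as did 0 of the 4 white-cell, 0 of the 2 platelet and 0 of the 5 choroid plexus probes, against 4.08% of the 28547 probes. The platelet chemokine Ppbp was detected in all B6 mice and no BTBR/R mouse, and its difference was not read for the same reason as that of Hbq1a. List levels are means over the brightest detected probe of each gene. The mean level of the white-cell list was -0.14, -0.85, -0.47 and -0.91 in B6 replicates 1 to 4 and ran from -1.11 to -0.43 in BTBR/R mice. Its members differed, as S100a9 had 0.22, -2.04, -0.72 and -1.99 and the brighter Lyz2 probe 1.76, 2.10, 2.13 and 1.67 in B6 replicates 1 to 4. The platelet list ran from -1.10 to -0.87 in B6 and from -1.55 to -1.19 in BTBR/R mice, and the endothelial and mural list from 0.96 to 1.01 and from 0.77 to 1.03. The choroid plexus list was at 1.24, 0.88, 0.12 and -1.39 in B6 replicates 1 to 4 and spanned -0.49 to 0.63 in BTBR/R mice. The part of these cells and of blood left in the tissue in the globin signals was not tested.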

How the data were processed

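Total RNA of each mouse was labeled with Cy3, hybridized to 1 Agilent array and measured with Agilent Feature Extraction 10.7.3.1 (version per the submitters' processing notes). The authors deposited, for every spot, intensities (background-subtracted processed signal, mean and local background signal) with flags for detection, saturation and outliers. They also deposited log2 values. On every array these were offset from the log2 of the processed signal by 1 fixed amount, to within 0.01 at no fewer than 99.97% of probes.

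Outlier and control spots were left out, spots of 1 probe were averaged, and log2 processed signal was scaled to each array's 75th percentile, which was 535 to 589 before scaling. No probe was saturated. The lowest detected signal was 14.5 to 17.8 on B6 and 36.1 to 47.1 on BTBR/R arrays, and the array number limits the precision. Strains were compared over all 56605 probes with limma 3.58.1 in R 4.3.3 (lmFit, eBayes, Benjamini-Hochberg), tested on simulated data. Nothing in the labels says that the mice came from separate litters. Counts of calls are over probes detected on all 8 arrays. Probes undetected in all BTBR/R mice got no difference, or a lower bound set at each array's lowest detected signal or the probe's own where higher. Spread was tested with an exact permutation over 70 splits, each strain centered on its own median, which makes it approximate. Probe positions are mm9. Members, lists and the naming rule (every member probe, every called list probe up to 6 per list, and the 8 probes most like the globin profile) were chosen with earlier results of these data known. Alternatives were normexp, quantile, median and detected-probe scaling, the authors' values, a detection filter, the methods' t-test, a replicate block, leaving out each mouse, and alpha-globin level as a covariate. Python 3.11.15, numpy 2.4.6, pandas 2.3.3 and matplotlib 3.10.9 were used for other steps.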

Additional observations from a re-analysis of the deposited data

Results flagged for a closer look

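In BTBR/R mice, 2 globin probes had 1 mouse far from the other 3 for the width of their group. Hbb-b1 was 0.43 in BTBR/R replicate 1, the 6-month mouse, and 0.09 to 0.13 in the others. Hbb-bt was 3.44 in the same mouse and 3.07 to 3.13 in the others. Of 28 groups of 4 mice examined, these 2 were flagged, which is close to the share of about 1 in 20 that chance gives. Both probes read the same RNA sample, so these are not independent. Without this mouse the ratio of B6 to BTBR/R SD rose from 4.97 to 45.8 for Hbb-b1 and from 5.35 to 27.7 for Hbb-bt.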

How the results depend on the processing

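The 5 lower calls stayed at 5 under median scaling, under scaling to detected probes and with the authors' values, and were 4 under normexp and 4 with undetected probes left out. They fell to 2 under quantile normalization (Hba-a2 and Alas2) and to 0 under the methods' t-test after Benjamini-Hochberg adjustment (adjusted p 0.0554 to 0.0759), and ranged from 0 to 6 when each mouse was left out. The replicate numbers did not pair the mice (correlations of same-numbered mice from -0.07 to 0.16), and with the number as a block 1 lower call was left (Alas2). No probe was called higher under any of these alternatives. With alpha-globin level as a covariate, added after seeing the data, 0 were called lower and 1 higher (Hbb-b2), alpha-globin probes not counted, and the Hbb-bt difference turned from -1.26 to 0.11. The 2 calls on the red-cell and haem lists became 1 with the covariate and stayed at 2 under every other alternative. The B6 SD was the larger at 7 of 8 probes under normexp, quantile normalization and every omission. Over all probes, limma called 12697 as reported, 563 under normexp and 2200 under quantile normalization, 11413, 231 and 544 of them higher. The cause of these changes was not tested.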
